A study of Zea mays with 12 samples.

Results

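A group of 6 maize genes encoding NAC domain transcription factors, ZmKIL1, ZmKIL2 and ZmNAC087L1 to ZmNAC087L4, was followed through the last day of the persistent synergid cell. Of 45246 genes and loci in the deposited tables, they are the NAC family genes that the study names as homologs of Arabidopsis death regulators. The study chose them with these libraries in hand, so the direction in which they moved is not independent evidence. The samples were cells of the inbred line B73, isolated by hand from ovules sliced and treated briefly with cellulase and macerozyme. Each library holds the amplified cDNA of 25 to 28 cells. The 4 stages, with 3 separately collected libraries each, were synergid cells before pollination (SC, 0 hours after pollination, HAP) and the persistent synergid cell at 12, 18 and 24 HAP (pSC12, pSC18 and pSC24). No group carries a transgene or mutation, and the receptive synergid cell, which the pollen tube enters, was not sampled after pollination.

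Synergid cells flank the egg cell and attract the pollen tube. One of the pair breaks down when it receives the tube, and the other persists for a time after fertilization and is then eliminated. NAC proteins are plant transcription factors that bind DNA through a conserved domain near the amino terminus. In Arabidopsis, KIRA1 (KIL stands for KIRA1-like) promotes the death of ageing stigma cells, and NAC087 acts in the programmed death of root cap cells. Such factors act upstream of the enzymes that degrade protein and nucleic acid in a dying cell.

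All 6 genes carry the NAM domain, and each has its own locus in Zm-B73-REFERENCE-NAM-5.0. ZmKIL1 (Zm00001eb077580) lies on chromosome 2 from 30614026 to 30617100 on the plus strand, and its closest described protein is CUP-SHAPED COTYLEDON 1 of Arabidopsis, a factor that sets organ boundaries. ZmKIL2 (Zm00001eb426640) lies on chromosome 10 from 133164716 to 133167805 on the plus strand and is described by its similarity to Arabidopsis NAC021. ZmNAC087L1 (Zm00001eb015570; chromosome 1, 53479632 to 53481750, minus strand) and ZmNAC087L2 (Zm00001eb330910; chromosome 7, 182734869 to 182736688, plus strand) both have Arabidopsis NAC087 as their closest described protein. ZmNAC087L3 (Zm00001eb093650; chromosome 2, 154371389 to 154372991, minus strand) and ZmNAC087L4 (Zm00001eb195770; chromosome 4, 190920332 to 190922096, plus strand) both have rice NAC077. None of the 6 overlaps another gene of the table, and each overlaps 1 RefSeq gene of the same assembly. Reads that fit both genes of such a pair could be split between them by the counting, since the treatment of multiply mapped reads is not given in the sources used here.

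Library totals ran from 15435736 to 26539602 counts. By the share of reads mapped in the study's library summary, all SC and pSC18 libraries and pSC24 replicate 1 form a lower set, and all pSC12 libraries with pSC24 replicates 2 and 3 a higher set. A difference between pSC12 and its neighbours therefore cannot be told apart from the set except through pSC24. The synergid marker ZmES4, a secreted peptide that acts in pollen tube burst, stood at 12036 ± 1008 FPKM (SD, n = 3) in SC. It was at 6154 ± 170 in pSC12, 9071 ± 1052 in pSC18 and 10922 ± 1815 in pSC24. ZmMYB98, whose Arabidopsis homolog controls synergid genes, fell from 1120 ± 79.0 FPKM in SC to 97.9 ± 70.0 in pSC24, with a log2 fold change of -3.53 (SE 0.37, edgeR adjusted p = 3.03e-05). Of the markers of neighbouring cells, both egg cell-secreted protein genes were detected at every stage, with summed levels of 172 to 428 FPKM in SC, 47.2 to 67.9 in pSC12, 67.5 to 199 in pSC18 and 42.8 to 119 in pSC24. Of 7 genes described as endosperm or maternally expressed genes, 5 were at 0 at all stages. The other 2 summed to 1190 to 2074 FPKM in SC, 1059 to 1096 in pSC12, 960 to 1244 in pSC18 and 1080 to 1671 in pSC24. Since SC cells were taken before pollination, when no endosperm exists, these 2 genes do not mark endosperm RNA here. The part of RNA from neighbouring cells in the levels given here was not tested.

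The 6 genes were first detected at 3 different times. A gene was taken as detected at a stage when each of the 3 libraries held over 3 counts, and a count of 3 corresponded to between 0.0433 and 0.129 FPKM (fragments scaled to gene length and library depth) depending on gene and library. A library with 0 counts therefore allows a level up to that limit, a limit for counting error alone, because cDNA was amplified and carries no molecular identifiers. By this measure ZmNAC087L1 and ZmNAC087L3 were already detected in SC, ZmNAC087L2 and ZmNAC087L4 from 18 HAP, and ZmKIL1 and ZmKIL2 at 24 HAP. With over 3 counts in 2 of 3 libraries instead, ZmKIL1 was first detected at 0 HAP and ZmNAC087L2 and ZmNAC087L4 at 12 HAP. The place of ZmKIL1 in the order thus depends on the rule.

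ZmNAC087L1 had 16, 32 and 44 counts in SC replicates 1, 2 and 3, which equals 0.522, 1.10 and 1.36 FPKM. At 12 HAP it had 7, 1 and 48 counts, so it was near the detection limit in replicate 2. At 18 HAP it reached 1.46, 3.53 and 3.66 FPKM, and at 24 HAP 27.4, 23.7 and 25.7 FPKM. The pSC18 libraries all lay above those of SC and pSC12, and the pSC24 libraries above those of pSC18. At 24 HAP this gene varied least between libraries relative to its mean apart from ZmNAC087L2, with 25.6 ± 1.83 FPKM (SD, n = 3).

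ZmNAC087L3, the other gene with transcript before pollination, stayed low for longer. It had 8, 23 and 37 counts in SC, 10, 11 and 32 in pSC12, and 15, 9 and 10 in pSC18. In FPKM these are means of 0.883 ± 0.538, 0.409 ± 0.289 and 0.415 ± 0.198 (SD, n = 3), and the libraries of the 3 stages overlap. At 24 HAP the counts were 915, 871 and 1529, or 27.6, 21.2 and 42.1 FPKM. Its increase thus fell wholly between the 18 and 24 HAP samples, without the intermediate level that its relative ZmNAC087L4 showed.

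ZmNAC087L2 was the most abundant of the 6 at both later stages. In SC it had 11, 0 and 0 counts and at 12 HAP 88, 0 and 9, so single libraries of each early stage held transcript and others none. At 18 HAP it had 404, 373 and 1227 counts, or 16.0, 11.4 and 34.2 FPKM. At 24 HAP it reached 145, 131 and 133 FPKM, a mean of 136 ± 7.30 (SD, n = 3). The lowest pSC18 library lay above the highest pSC12 library, which was at 1.86 FPKM.

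ZmNAC087L4 had 6, 0 and 0 counts in SC and 0, 6 and 72 in pSC12. It rose to 47, 99 and 128 counts at 18 HAP, which equals 1.99, 3.25 and 3.82 FPKM. At 24 HAP it stood at 22.0, 46.7 and 29.0 FPKM. The pSC18 libraries lay above all earlier ones, the nearest of which was pSC12 replicate 3 at 1.65 FPKM.

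The KIL genes came last by the rule of all 3 libraries, and they differed from each other in the early libraries. ZmKIL1, which promotes senescence of the silk base in maize, had 4, 0 and 14 counts in SC, 0, 16 and 24 in pSC12, and 0, 71 and 110 in pSC18. Its detection at 18 HAP was thus divided: replicates 2 and 3 were at 1.48 and 2.09 FPKM and replicate 1 had no count. Without pSC18 replicate 1, the first stage of detection of ZmKIL1 is 18 HAP, without pSC12 replicate 1 it is 12 HAP, and without SC replicate 2 it is 0 HAP. At 24 HAP it reached 41.2, 26.5 and 49.6 FPKM.

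ZmKIL2 had no count in any SC or pSC12 library, and in pSC18 only replicate 3 held any, with 10 counts or 0.251 FPKM. At 24 HAP it had 164, 331 and 499 counts, or 4.11, 6.66 and 11.4 FPKM. The pSC24 mean was at least 71.8-fold higher than the level of 3 counts in the least sensitive SC library, and at least 128-fold higher than that in pSC12. Of the 6 genes, it was the lowest in each pSC24 library.

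**Figure D1:**
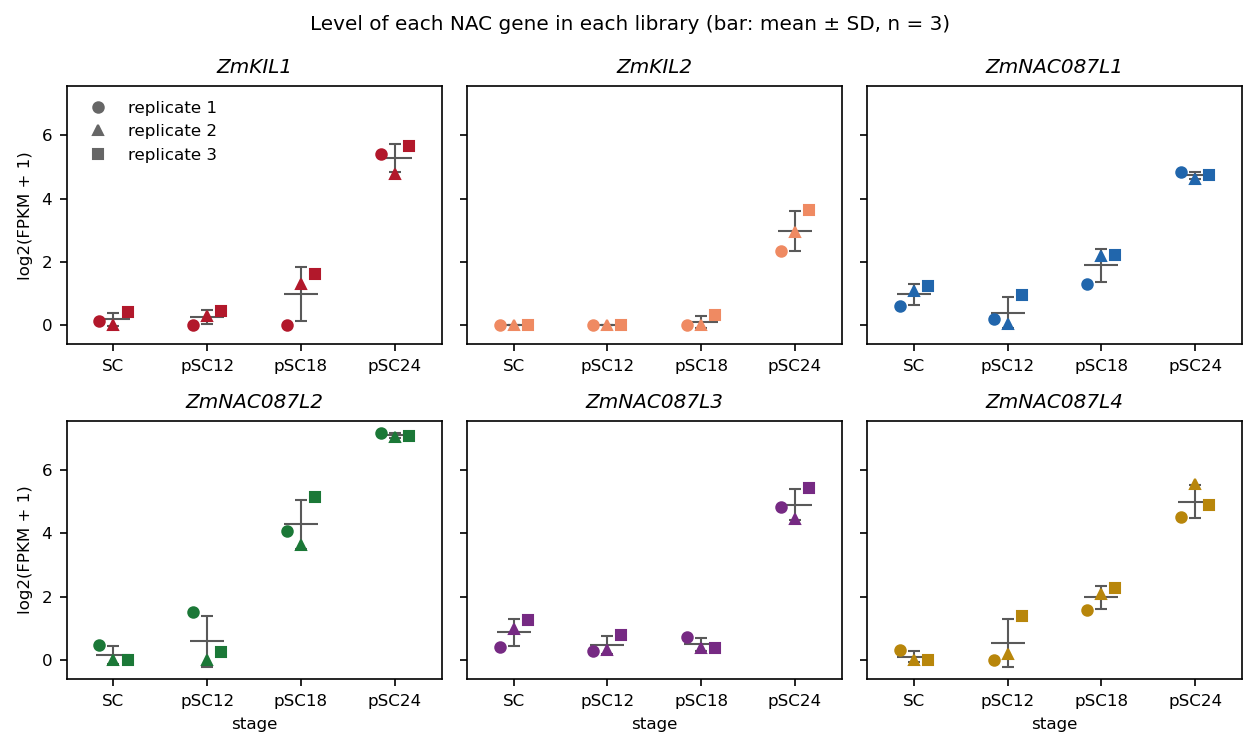
Level of each of the 6 NAC genes on the log2(FPKM + 1) scale in each of the 12 libraries, by stage; markers are replicates and grey bars the mean ± SD of 3 libraries. ZmNAC087L2, ZmNAC087L4 and ZmNAC087L1 stand above their earlier libraries at 18 HAP, ZmNAC087L3 stays low up to 18 HAP, and all 6 are highest at 24 HAP.

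How far each gene had come by 18 HAP was read from its share of the 24 HAP level. The pSC18 mean as a share of the pSC24 mean was 15.1% for ZmNAC087L2 (single pSC18 libraries 8.39 to 25.1%), 11.3% for ZmNAC087L1 (5.70 to 14.3%) and 9.28% for ZmNAC087L4 (6.11 to 11.7%), which overlap. It was 3.04% for ZmKIL1 (0 to 5.34%), 1.37% for ZmNAC087L3 (0.990 to 2.13%) and 1.13% for ZmKIL2 (0 to 3.4%), which overlap too. With each pSC24 mean held fixed, the pSC18 libraries of the first 3 genes all lay above those of the last 3. The nearest values were 5.70% for ZmNAC087L1 and 5.34% for ZmKIL1. These ranges leave out the spread of the pSC24 libraries, 26.5 to 49.6 FPKM for ZmKIL1 and 22.0 to 46.7 for ZmNAC087L4. The separation is therefore stated for the fixed means alone. ZmNAC087L1 and ZmNAC087L2, which share their closest described protein, both belong to the first 3, while ZmNAC087L4 and ZmNAC087L3, which share another, fall on either side. The ratio of ZmNAC087L4 to ZmNAC087L3 was 3.09, 10.8 and 12.6 in the pSC18 libraries and 0.798, 2.21 and 0.689 in the pSC24 libraries, without overlap. The difference was 2.82 on the log2 scale, and the two-sided exact permutation test gave p = 0.1 (Benjamini-Hochberg 0.2 over 2 pairs), the smallest p that 3 against 3 libraries allow. For the other pair, the ratio of ZmNAC087L2 to ZmNAC087L1 was 10.9, 3.24 and 9.34 in pSC18 and 5.28, 5.53 and 5.18 in pSC24. These overlap, and the exact permutation p was 0.4.

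Since FPKM is per length, the levels of the 6 genes can be ranked within a stage. Neighbours in the order of the means are taken as apart only where the same gene was higher in all 3 libraries. In SC, ZmNAC087L1 (0.994 FPKM) and ZmNAC087L3 (0.883) came first and were not apart, with ratios of 0.985 to 1.66. ZmNAC087L3 was above ZmKIL1 in all 3 libraries. ZmNAC087L2, ZmNAC087L4 and ZmKIL2 followed ZmKIL1, with at most 1 library holding counts.

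At 12 HAP the order of means was ZmNAC087L2, ZmNAC087L4, ZmNAC087L3, ZmNAC087L1, ZmKIL1 and ZmKIL2, from 0.685 FPKM to 0. No neighbouring pair was apart, and a different gene led in each library: ZmNAC087L2 in replicate 1, ZmNAC087L3 in replicate 2 and ZmNAC087L4 in replicate 3. By the median of the libraries only 1 of the 6 genes keeps its rank at this stage. Beyond neighbours, ZmNAC087L3 was above ZmKIL1 and ZmKIL2 in all 3 libraries. ZmNAC087L1 was above ZmKIL2 in all 3, though by 1 count in replicate 2. The rest of the order at 12 HAP is not resolved by these libraries.

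At 18 HAP ZmNAC087L2 led in all 3 libraries, with 3.52 to 8.95 times the level of ZmNAC087L4. ZmNAC087L4 and ZmNAC087L1 were not apart, with ratios of 0.920 to 1.36. ZmNAC087L1 was above ZmKIL1 in all 3 libraries, ZmKIL1 and ZmNAC087L3 were not apart, and ZmNAC087L3 was above ZmKIL2 in all 3. At 24 HAP ZmNAC087L2 again led in every library, with 2.68 to 4.95 times the level of ZmKIL1, which had moved from the fourth place to the second.

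The 4 genes in the middle at 24 HAP, ZmKIL1, ZmNAC087L4, ZmNAC087L3 and ZmNAC087L1, had means of 39.1, 32.6, 30.3 and 25.6 FPKM. No neighbours among them were apart, but ZmKIL1 was above both ZmNAC087L3 and ZmNAC087L1 in all 3 libraries. The ratio of ZmKIL1 to ZmNAC087L4 ran from 0.568 to 1.87, that of ZmNAC087L4 to ZmNAC087L3 from 0.689 to 2.21, and that of ZmNAC087L3 to ZmNAC087L1 from 0.892 to 1.64. ZmKIL2 was last, with ZmNAC087L1 at 2.26 to 6.67 times its level. Between the 2 KIL genes the ratio was 10.04, 3.98 and 4.36 in replicates 1, 2 and 3.

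**Figure D2:**
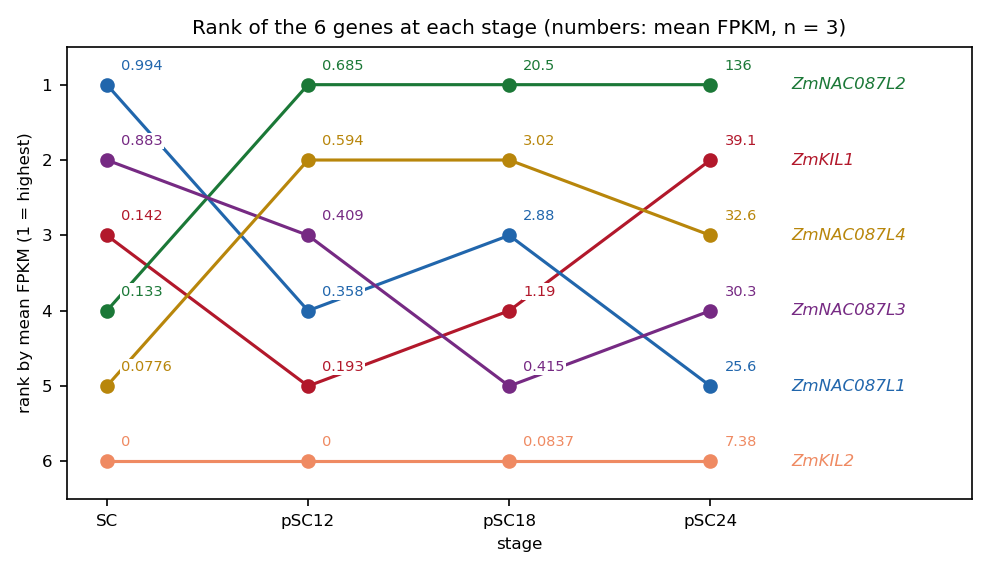
Rank of the 6 genes by mean FPKM at each stage (1 is the highest), with the mean FPKM of 3 libraries beside each point. ZmNAC087L2 is first from 12 HAP on, though apart from its neighbour only at 18 and 24 HAP, and ZmKIL2 is last throughout.

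Stages were then compared by their counts in edgeR, with its quasi-likelihood test. A gene was called where the Benjamini-Hochberg adjusted p lay under 0.05 and the fitted log2 change exceeded 1 in either direction. In these bulk libraries fewer cells with a transcript and less of it per cell cannot be told apart. Between SC and pSC12, 0 of the 6 genes were called, beside 1.62% of the 21143 genes tested that were called higher in pSC12 and 1.18% that were called lower. None of the 6 had an unadjusted p under 0.05 in this comparison, and DESeq2 also called 0. The fitted log2 differences ran from -1.46 (SE 0.77) for ZmNAC087L1 to 2.88 (SE 1.41) for ZmNAC087L4, and the libraries of both stages overlapped for each gene, while every pSC12 library exceeded every SC library for 13% of all genes tested. Without pSC12 replicate 3, which held 48 of its counts at that stage, ZmNAC087L1 was called lower in pSC12 (-3.64, SE 0.68, edgeR adjusted p = 0.0175).

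From 12 to 18 HAP, 0 of the 6 passed the edgeR test, in a comparison in which 0.0189% of all genes tested were called higher and 0.00473% lower. Of the 6 genes, 5 were higher at an unadjusted edgeR p under 0.05, all but ZmNAC087L3, as were 7.91% of all genes tested. For ZmKIL2 this rests on 10 counts in pSC18 replicate 3, and ZmKIL1 had no count in pSC18 replicate 1. In DESeq2 on 12 libraries the unadjusted p was 0.148 for ZmKIL1, 0.179 for ZmKIL2 and 0.143 for ZmNAC087L4, with none given for ZmNAC087L2. DESeq2 on 12 libraries called 1, ZmNAC087L1 (DESeq2 adjusted p = 0.00479), and 1.58% of the genes to which it gave an adjusted p. In edgeR, ZmNAC087L2 had a log2 fold change of 4.89 (SE 0.86, adjusted p = 0.0687) and ZmNAC087L1 one of 3.0 (SE 0.76, adjusted p = 0.139). Both were called when edgeR p-values were adjusted over all 6 comparisons together (adjusted p = 0.00276 and 0.0204), as were 1.38% of all genes tested. ZmNAC087L2 was also called by edgeR without the filter on low counts (adjusted p = 0.0137), beside 0.174% of the genes then tested. Every pSC18 library exceeded every pSC12 library for 3 of the 6 genes, ZmNAC087L1, ZmNAC087L2 and ZmNAC087L4, and for 9.01% of all genes tested. Again without pSC12 replicate 3, edgeR called ZmNAC087L1 higher at 18 HAP (adjusted p = 0.0378).

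Against SC, 2 of the 6 genes were called higher at 18 HAP, where 2.71% of all genes tested were. ZmNAC087L2 had a log2 fold change of 7.24 (SE 1.13, edgeR adjusted p = 0.00266). ZmNAC087L4 had one of 5.23 (SE 1.30, edgeR adjusted p = 0.0266), and its call was lost without any single SC library and without pSC18 replicate 2 or 3. Both sizes rest on SC replicate 1, the 1 SC library with counts of these genes: without it the fitted values were 12.6 and 9.71, which depend on the prior count and are no bound. DESeq2 on 12 libraries gave neither a p nor an adjusted p for ZmNAC087L2. It called ZmNAC087L4, beside 4.7% of the genes to which it gave an adjusted p. ZmKIL1 did not pass the test (3.04, SE 1.15, edgeR adjusted p = 0.125) unless pSC18 replicate 1, the library with no count, was left out (edgeR adjusted p = 0.0336). The libraries of SC and pSC18 did not overlap for ZmNAC087L1, ZmNAC087L2 and ZmNAC087L4, as for 14.9% of all genes tested in the same direction.

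From 18 to 24 HAP all 6 genes were called higher, where 4.82% of all genes tested were called higher and 3.26% lower. Each pSC24 library exceeded each pSC18 library for all 6 genes and for 17.2% of all genes tested. The largest fitted changes among the 6 were in ZmKIL2, with a log2 fold change of 6.31 (SE 1.23, edgeR adjusted p = 0.0113), which rests on 10 counts in 1 pSC18 library, and in ZmNAC087L3, with 6.20 (SE 0.62, edgeR adjusted p = 0.000126). ZmKIL1 followed with 4.99 (SE 0.93, edgeR adjusted p = 0.00407). The fitted changes of the other 3 genes were smaller, though the differences between genes were not tested: ZmNAC087L4 rose by 3.41 (SE 0.91, edgeR adjusted p = 0.0256), ZmNAC087L1 by 3.13 (SE 0.70, edgeR adjusted p = 0.0109) and ZmNAC087L2 by 2.72 (SE 0.72, edgeR adjusted p = 0.0249).

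These calls differed in how firmly they held. DESeq2 on the 6 libraries of the comparison alone called all 6, beside 7.22% of all genes with an adjusted p. DESeq2 on 12 libraries called 3 of the 5 genes to which it gave an adjusted p, beside 6.46% of all genes, and gave none for ZmNAC087L2. With a term for the mapping set, edgeR called 2, ZmKIL1 and ZmNAC087L3, beside 1.91% of all genes tested. The log2 fold changes of the other 4 in that fit were 3.23 for ZmNAC087L1 (adjusted p = 0.0607), 5.47 for ZmKIL2 (0.0753), 2.81 for ZmNAC087L2 (0.112) and 2.86 for ZmNAC087L4 (0.191). Within the lower set, which holds all pSC18 libraries and 1 pSC24 library, the pSC24 value exceeded the highest pSC18 library by 4.23-fold for ZmNAC087L2 up to 42.9-fold for ZmNAC087L3. ZmNAC087L2 lost its call without pSC18 replicate 1 or 2 or pSC24 replicate 1 or 2, where its log2 fold change was 2.48 to 2.74. ZmNAC087L4 lost its call without any single pSC18 library or pSC24 replicate 2 or 3, with 3.06 to 3.61.

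Over the whole course, all 6 genes were called higher in pSC24 than in SC, beside 10.3% of all genes tested that were called higher and 7.57% that were called lower. They were also all called higher in pSC24 than in pSC12, where 8.68% of all genes tested were. The log2 fold changes from SC to pSC24 were 9.96 (SE 1.15) for ZmNAC087L2, 8.64 (SE 1.31) for ZmNAC087L4, 8.02 (SE 1.16) for ZmKIL1, 5.07 (SE 0.57) for ZmNAC087L3 and 4.67 (SE 0.77) for ZmNAC087L1. Without SC replicate 1, the fitted values of ZmNAC087L2 and ZmNAC087L4 were 15.3 and 13.2, against SC libraries with no count of either. The edgeR adjusted p-values of these 5 genes with all libraries lay between 5.09e-05 and 0.000734, and that of ZmKIL2, for which only the bound above is given, was 0.00202. All alternatives that gave an adjusted p called all genes in both comparisons, but DESeq2 on 12 libraries gave none for ZmNAC087L2.

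**Figure D3:**
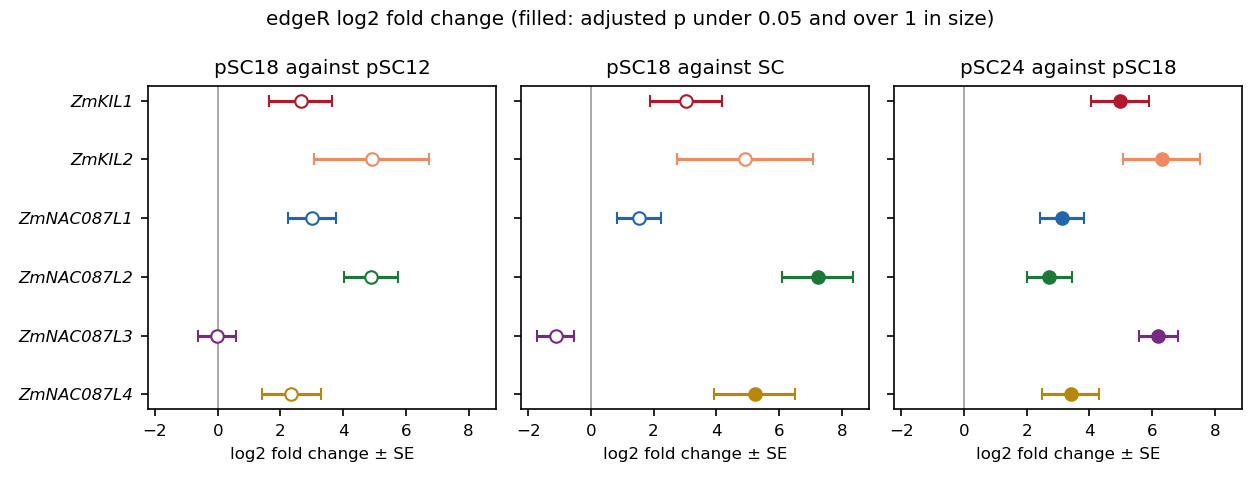
Log2 fold change ± SE from edgeR for the 6 genes in 3 comparisons; filled points passed the test (adjusted p under 0.05 and over 1 in size). At 18 HAP only ZmNAC087L2 and ZmNAC087L4 passed against SC and none against pSC12, and all 6 passed from 18 to 24 HAP, where ZmKIL2 and ZmNAC087L3 have the largest values.

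Set among all NAC domain genes, the 6 took a growing share of the transcript level from 18 HAP on. The tables describe 209 genes as NAC domain genes, not counting the unrelated nascent polypeptide-associated complex. The 6 together held 0.361, 0.488 and 0.750% of the summed FPKM of these genes in SC and 0.530, 0.154 and 0.848% in pSC12. They held 4.17, 4.53 and 8.71% in pSC18 and 32.6, 32.9 and 34.8% in pSC24. The summed level of all NAC domain genes was 421 ± 11.8 FPKM in SC, 477 ± 33.9 in pSC18 and 811 ± 29.1 in pSC24 (SD, n = 3).

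By mean FPKM, ZmNAC087L2 ranked 63 among the NAC domain genes in SC, 8 in pSC18 and 1 in pSC24. In pSC24 ZmKIL1 ranked 5, ZmNAC087L4 7, ZmNAC087L3 8, ZmNAC087L1 11 and ZmKIL2 25. Among all 45246 genes and loci ZmNAC087L2 ranked 363 in pSC24. The other NAC domain genes with the highest pSC24 levels were Zm00001eb349010 at 44.1 ± 7.36 FPKM, Zm00001eb175500 at 42.8 ± 15.7 and Zm00001eb191020 at 39.4 ± 3.49. Zm00001eb349010 and Zm00001eb191020, both described by similarity to Arabidopsis NAC078, had 38.2 ± 1.31 and 44.2 ± 3.12 FPKM in SC and were not called at 24 HAP against 18 HAP. Zm00001eb175500, described by similarity to Arabidopsis NAC018, had 0.0130 FPKM in SC and 0.243 ± 0.420 in pSC18 and was called higher from 18 to 24 HAP (log2 fold change 7.38, SE 0.91, edgeR adjusted p = 0.000749). Of the 203 NAC domain genes other than the 6, 64 were tested from 18 to 24 HAP. Among these 64, 8 (12.5%) were called higher and 0 lower, beside 4.82% and 3.26% of all genes tested. Their median log2 fold change was 0.12 beside -0.01 over all genes tested.

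**Figure D4:**
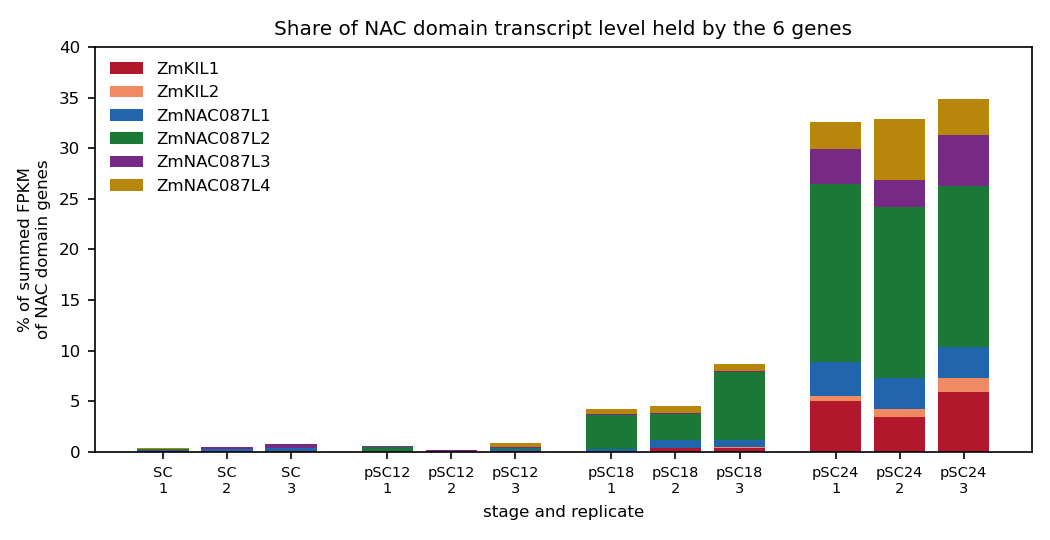
Share of the summed FPKM of 209 NAC domain genes held by each of the 6 genes, stacked, in each library. The sum stays under 1% in SC and pSC12, reaches 4.17 to 8.71% in pSC18 and 32.6 to 34.8% in pSC24, where ZmNAC087L2 takes the largest part.

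Of the 4 cell death enzymes that the study names with a gene identifier, none was detected in all libraries of a stage before 24 HAP. ZmCEP1 (Zm00001eb039650), a papain-type protease with a KDEL tail, was at 0 in all libraries up to 18 HAP and at 106 ± 11.2 FPKM in pSC24 (SD, n = 3). ZmVPEγ (Zm00001eb345400), a vacuolar processing enzyme, had counts before 24 HAP in pSC18 replicate 3 alone, at 6.97 FPKM, and stood at 119 ± 46.3 FPKM in pSC24. The nuclease genes ZmBFN1 (Zm00001eb043930) and ZmNEN4 (Zm00001eb267630) had 0.407 ± 0.704 and 0.104 ± 0.141 FPKM in pSC18 and 19.9 ± 11.6 and 48.5 ± 7.72 in pSC24. ZmBFN1 also had 0.612 ± 0.991 FPKM in SC, and ZmNEN4 was at 0 there. These 4 genes were also chosen by the study on these libraries. All of them were called higher from 18 to 24 HAP, with edgeR adjusted p-values of 4.08e-05 for ZmCEP1, 0.000148 for ZmNEN4, 0.0234 for ZmVPEγ and 0.0348 for ZmBFN1.

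A wider list of 73 cell death genes was taken by description: metacaspases, vacuolar processing enzymes, S1/P1 nucleases, KDEL proteases, Bax inhibitors, BAG family proteins and EIN3-like factors of ethylene signalling. Of 30 that were tested from 18 to 24 HAP, 5 (16.7%) were called higher and 0 lower, beside 4.82% and 3.26% of all genes tested. The median log2 fold change of the 30 was 0.55 beside -0.01 over all genes tested. Of the 5, 3 are ZmCEP1, ZmVPEγ and ZmBFN1, which the study chose on these libraries, so the count is not independent of that choice. Another is an EIN3-like gene, and the study also reports a late rise of EIN3 and EIL1 in these libraries. By family, the 5 were 2 of 4 S1/P1 nucleases, 1 of 4 vacuolar processing enzymes, the 1 KDEL protease tested and this EIN3-like gene. That gene was 1 of 4 EIN3-like genes tested. Called higher were 0 of 5 metacaspases, 0 of 3 Bax inhibitors and 0 of 9 BAG family genes. Several of its most abundant genes were present from the start: Zm00001eb335070 (similar to Arabidopsis endonuclease ENDO4) had 720 ± 52.4 FPKM in SC and 633 ± 152 in pSC24, and Zm00001eb230820 (similar to rice Bax inhibitor 1) had 172 ± 4.80 and 188 ± 8.80. Zm00001eb150730, similar to Arabidopsis metacaspase-5, had 160 ± 8.85 FPKM in SC and 112 ± 5.28 in pSC24.

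The genes whose course over the 12 libraries was most like that of each factor were sought among 11894 genes whose mean reached 5 FPKM at some stage, by Pearson's r of log2(FPKM + 1). These values describe 4 stages of 3 libraries and share the step at 24 HAP. ZmKIL1 was most like Zm00001eb007920 (a UPF0496 family protein, r = 0.995) and Zm00001eb371270 (a RING-H2 finger protein, r = 0.992). ZmKIL2 was most like Zm00001eb155360, which has no description (r = 0.998), and a locus without an annotated gene (r = 0.997).

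ZmNAC087L1 was most like Zm00001eb286320, a CASP-like protein gene (r = 0.985), and the undescribed Zm00001eb208580 (r = 0.982). The latter had a mean of 3.22 FPKM in SC and 13.6 in pSC24, since Pearson's r does not depend on the size of a change. ZmNAC087L2 had looser matches in Zm00001eb387510 (a UBX domain protein, r = 0.973) and Zm00001eb047030 (a WRC domain protein, r = 0.967). Both were already expressed before pollination. Zm00001eb387510 had a mean of 33.0 FPKM in SC and 59.8 in pSC24, and Zm00001eb047030 had 2.86 and 16.0. ZmNAC087L3 was most like Zm00001eb120250 (similar to a rice gibberellin 2-beta-dioxygenase, r = 0.989) and Zm00001eb346570 (similar to caffeoylshikimate esterase, r = 0.988). ZmNAC087L4 was most like Zm00001eb316540 (a pirin-like protein) and Zm00001eb330160 (similar to a receptor-like cytoplasmic kinase), both at r = 0.985. Among the 6 themselves r ran from 0.77 between ZmNAC087L2 and ZmNAC087L3 to 0.97 between ZmKIL2 and ZmNAC087L3.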

How the data were processed

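The authors cleaned reads with Cutadapt 1.15, mapped them with HISAT2 2.0.5 to Zm-B73-REFERENCE-NAM-5.0 and obtained gene counts from featureCounts 1.5.0-p3. Strand and multiple mapping settings are not given in the sources used here. Deposited raw counts and deposited FPKM values were used for 12 libraries grouped by title. The deposited FPKM values equal counts per gene length, scaled to a library size that is the product of the size factor of DESeq2 and the geometric mean of all totals (largest relative difference 2.08e-14). Counts were tested with edgeR 4.0.16 (limma 3.58.1, R 4.3.3; TMM, filterByExpr, stage as the only term, common dispersion 0.239), which left 21143 genes, with Benjamini-Hochberg adjustment separately in 6 comparisons. The test was also run on simulated data, the outcome of which is not given here. No conclusion about calls that rest on few counts is drawn from that run. Alternatives were DESeq2 1.42.0, other scalings, filters and terms, and each library left out. DESeq2 on 6 libraries was added after seeing the data.

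Members, lists and tests were chosen with earlier results of these data known. Named beyond the members were ZmES4 and ZmMYB98 as markers, the 3 other NAC domain genes highest in pSC24, the 2 genes most like each member, and of the cell death list the 5 highest in pSC24 (which include ZmVPEγ and ZmCEP1) with the 4 enzymes that the study names with an identifier. Patterns that also took EIN3-binding and BBD nuclease genes were narrowed after the first run. No gene was described as nucellin, the nucellus marker. Ribosomal protein genes, a sign of egg cell or zygote RNA, summed to 10195 to 11438 FPKM in SC, 9533 to 11218 in pSC12, 10685 to 13632 in pSC18 and 11571 to 11972 in pSC24. RefSeq gene symbols were matched by position for all 6 members. Protein and promoter sequences were not used here.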

Additional observations from a re-analysis of the deposited data

How the results depend on the processing

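All 6 genes stayed called higher in pSC24 than in SC and pSC12 under each alternative that gave an adjusted p. DESeq2 on 12 libraries gave none for ZmNAC087L2. From 18 to 24 HAP the count of 6 became 3 with DESeq2 on 12 libraries (of 5 genes with an adjusted p) and 2 with a term for the mapping set, and 4 to 6 with 1 library left out. From SC to 18 HAP the count of 2 became 1 with DESeq2 on 12 libraries, which gave ZmNAC087L2 no adjusted p, and 1 to 3 with 1 library left out. From 12 to 18 HAP the count of 0 became 1 with DESeq2 on 12 libraries, 1 with no filter on low counts, 2 with p-values adjusted over all 6 comparisons, and 0 to 1 with 1 library left out. Replicate numbers did not pair the libraries (correlation of same-numbered deviations -0.06 to 0.09, 18 pairs), and the replicate block left the counts at 0, 0, 6, 2, 6 and 6 for pSC12 against SC, pSC18 against pSC12, pSC24 against pSC18, pSC18 against SC, pSC24 against pSC12 and pSC24 against SC. Total-count scaling put the median log2 change of all genes against SC at 0.25 to 0.28 and changed no call.

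Some uncalled differences changed sign. From SC to pSC12, ZmKIL1 (0.40) went to -0.16 without SC replicate 2 and -0.33 without pSC12 replicate 3, ZmNAC087L2 (2.35) to -0.45 without pSC12 replicate 1, and ZmNAC087L4 (2.88) to -0.17 without pSC12 replicate 3. With 1 library left out these ran up to 1.88, 7.68 and 7.37. From 12 to 18 HAP, ZmNAC087L3 (-0.02) went to 0.019 with DESeq2 and 0.0093 with edgeR on 6 libraries, 0.13 with the replicate block, 0.16 with the mapping set, and 0.72, 0.15 and 0.17 without pSC12 replicate 3 and pSC18 replicates 2 and 3 (lowest -0.44).

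The first stage of detection changed with the rule and with single libraries. With over 3 counts in 2 of 3 libraries it became 0 HAP for ZmKIL1 and 12 HAP for ZmNAC087L2 and ZmNAC087L4. With over 1 FPKM in each library it became 18 HAP for ZmNAC087L1 and 24 HAP for ZmNAC087L3, and with at least 10 counts 12 HAP for ZmNAC087L3. With 1 library left out it ran from 0 to 24 HAP for ZmKIL1 and from 12 to 18 HAP for ZmNAC087L2 (pSC12 replicate 2) and ZmNAC087L4 (pSC12 replicate 1). By the median, 4, 1 and 4 of 6 genes kept their rank in SC, pSC12 and pSC18, and by the mean of log2(FPKM + 0.1) 3 in pSC12. With 1 library left out, 3 to 6 kept it in SC, 1 to 4 in pSC12, 4 to 6 in pSC18 and 2 to 6 in pSC24. The share of NAC domain FPKM then ran from 0.424 to 0.619% in SC, 0.342 to 0.689% in pSC12, 4.35 to 6.62% in pSC18 and 32.7 to 33.9% in pSC24.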
